A study of Homo sapiens with 3 samples.

Results

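Epithelial cells can lose cell-cell adhesion and become migratory in the epithelial-mesenchymal transition, and the 10 genes described here are its core switch regulators with the mesenchymal filament gene VIM. They were chosen by name: the mesenchymal transcription factors ZEB1, ZEB2, SNAI2 and TWIST1, the epithelial transcription factors GRHL2, OVOL1 and OVOL2, the epithelial splicing regulators ESRP1 and ESRP2, and VIM, which encodes vimentin. All 10 were found among the 58735 genes of the deposited tables, and all 10 were among the 18025 genes that reached 1 CPM (counts scaled to library depth) in at least 1 library and were compared. RNA was sequenced from 3 established human prostate cancer cell lines without further treatment in the labels, with 1 library per line. All lines were grown at 37 °C with 5% CO2 and 10% fetal bovine serum. The labels name several culture media without assigning one to each line, so a difference in medium cannot be told apart from a difference between lines. PC3 and DU145, which grow without androgen, stand for castration-resistant cancer in the series, and LNCAP, which responds to androgen, stands for androgen-dependent cancer. Each group is thus 1 or 2 established lines grown in culture, and differences between lines cannot be told apart from differences between the classes. The libraries held 15319045 counts in PC3, 15878546 in DU145 and 15393103 in LNCAP. At this depth a count of 0 allowed up to 3 counts, or 0.189 to 0.196 CPM. With a single library per line, no difference between lines could be set against replicate spread. RNA of whole cultures was measured, so fewer cells that express a gene and less RNA per cell cannot be told apart.

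The switch works through mutual repression. ZEB1 and ZEB2 are zinc finger repressors that bind E-box sequences in the promoters of epithelial genes such as CDH1, and SNAI2 and TWIST1 act on overlapping targets. GRHL2 activates epithelial junction genes and represses ZEB1, OVOL1 and OVOL2 repress ZEB1 and other mesenchymal genes, and ESRP1 and ESRP2 direct the epithelial splice forms of transcripts such as those of FGFR2 and CD44. The microRNAs of the miR-200 family bind the ZEB1 and ZEB2 transcripts, and the ZEB proteins in turn repress the genes of these microRNAs.

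The mature microRNA sequences are shown because they connect the 2 sides of the switch by base pairing. Their seeds (bases 2 to 8 from the 5′ end, in capitals) fall into 2 groups that differ by 1 base, with miR-200a and miR-141 in the first and miR-200b, miR-200c and miR-429 in the second. The sequences are from RefSeq on GRCh38.p14, with miR-200a, miR-200b and miR-429 on chromosome 1 and miR-200c and miR-141 on chromosome 12.
hsa-miR-200a-3p: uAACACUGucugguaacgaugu
hsa-miR-141-3p: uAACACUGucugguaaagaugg
hsa-miR-200b-3p: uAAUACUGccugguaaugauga
hsa-miR-200c-3p: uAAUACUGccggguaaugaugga
hsa-miR-429: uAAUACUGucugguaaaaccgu

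Letters complementary to these seeds, CAGTGTT for the first group and CAGTATT for the second, were searched in the longest annotated 3′ untranslated region of each member (GENCODE release 29, transcript strand). ZEB1 held 3 of the first and 6 of the second in 2549 bases, and ZEB2 held 4 and 5 in 5370 bases. Of 2555 untranslated regions within 80 to 125% of the ZEB1 length, 0.0391%, which is ZEB1 itself, held 9 or more matches. For ZEB2 the share was 0.171% of 1173 regions. Among the other members, SNAI2 and GRHL2 held 1 match each, ESRP1 held 2, and TWIST1, OVOL1, OVOL2, ESRP2 and VIM held 0. A match is a description of the letters and not evidence of binding. Examples of both kinds in ZEB1 (chr10:31528035-31528064 and chr10:31527622-31527651, plus strand) and ZEB2 (chr2:144388699-144388728 and chr2:144389041-144389070, minus strand) are given 5′ to 3′ with the match in capitals.
ZEB1 site for miR-200a and miR-141: atcatcagaatCAGTGTTtgtgattgtgtt
ZEB1 site for miR-200b, miR-200c and miR-429: ttttatcttatCAGTATTatcactcttatg
ZEB2 site for miR-200a and miR-141: ccatccttgtaCAGTGTTaagagggtaaca
ZEB2 site for miR-200b, miR-200c and miR-429: ctaccatacatCAGTATTtttattattatt

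Promoter windows of ZEB1 and MIR200CHG, the host gene of miR-200c and miR-141, are shown because the counts of these genes ran in opposite orders across the lines. Windows of 250 bases before to 50 bases after the RefSeq start were searched for the E-box letters CAGGTG and CACCTG, which are the same motif read on the 2 strands. ZEB1 has 7 RefSeq starts, and the window of the start at chromosome 10 position 31319216 held 3 of them, at -242, -85 and 33 bases from the start, which is counted as 0. Another ZEB1 window held 1 and the remaining 5 held 0. The window of MIR200CHG held 1 at -78, and the windows of ZEB2 and VIM held 0. Among 34943 promoters in the table, 20.6% held at least 1 and 0.632% held at least 3. These are shares of single windows and not of genes, and ZEB1 had 7 windows in which to hold a match. The ZEB1 window (chr10:31318966-31319265, plus strand) and the MIR200CHG window (chr12:6962995-6963294, plus strand) are printed with the E-boxes in capitals, from RefSeq on GRCh38.p14.
ZEB1 promoter: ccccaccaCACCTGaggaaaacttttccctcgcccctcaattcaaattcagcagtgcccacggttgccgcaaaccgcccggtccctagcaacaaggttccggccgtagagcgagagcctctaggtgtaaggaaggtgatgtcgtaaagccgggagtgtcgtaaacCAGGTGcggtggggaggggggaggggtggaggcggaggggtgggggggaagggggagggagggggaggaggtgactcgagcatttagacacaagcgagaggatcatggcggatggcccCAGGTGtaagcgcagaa
MIR200CHG promoter: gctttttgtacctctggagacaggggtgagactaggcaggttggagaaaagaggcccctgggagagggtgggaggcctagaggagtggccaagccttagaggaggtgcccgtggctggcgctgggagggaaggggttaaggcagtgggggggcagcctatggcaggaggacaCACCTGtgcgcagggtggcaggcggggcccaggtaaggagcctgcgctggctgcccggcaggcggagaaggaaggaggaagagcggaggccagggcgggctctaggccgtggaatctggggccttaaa

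PC3 and DU145 carried ZEB1 and VIM at levels far above LNCAP, and GRHL2, OVOL1 and ESRP1 at levels far below it. TWIST1 went against its group, with its highest level in LNCAP and no counts in DU145, and SNAI2 differed by 1.67-fold or less between any 2 lines. A gene was called higher or lower when its ratio of scaled counts was at least 4-fold and its 95% counting interval excluded 1. In PC3 over LNCAP, 3 members were called higher and 5 lower, beside 13.0% and 13.3% of all genes compared. In DU145 over LNCAP the counts were also 3 higher and 5 lower, beside 13.7% and 12.1% of all genes. The members called higher in both were ZEB1, ZEB2 and VIM, and those called lower in both were GRHL2, OVOL1, OVOL2 and ESRP1. The ZEB2 calls were lost on deposited FPKM with 0.1 added, at a log2 ratio of 0.67 in PC3 and 0.24 in DU145, and in DU145 also with 5 counts added, at 1.26. The OVOL2 call in DU145 was lost under the same settings, at -1.93 and -1.92. ESRP2 was called lower in PC3 alone and TWIST1 in DU145 alone. SNAI2 was called in neither. Both comparisons use the same LNCAP library, so their likeness is not an independent repeat.

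**Figure D1:**
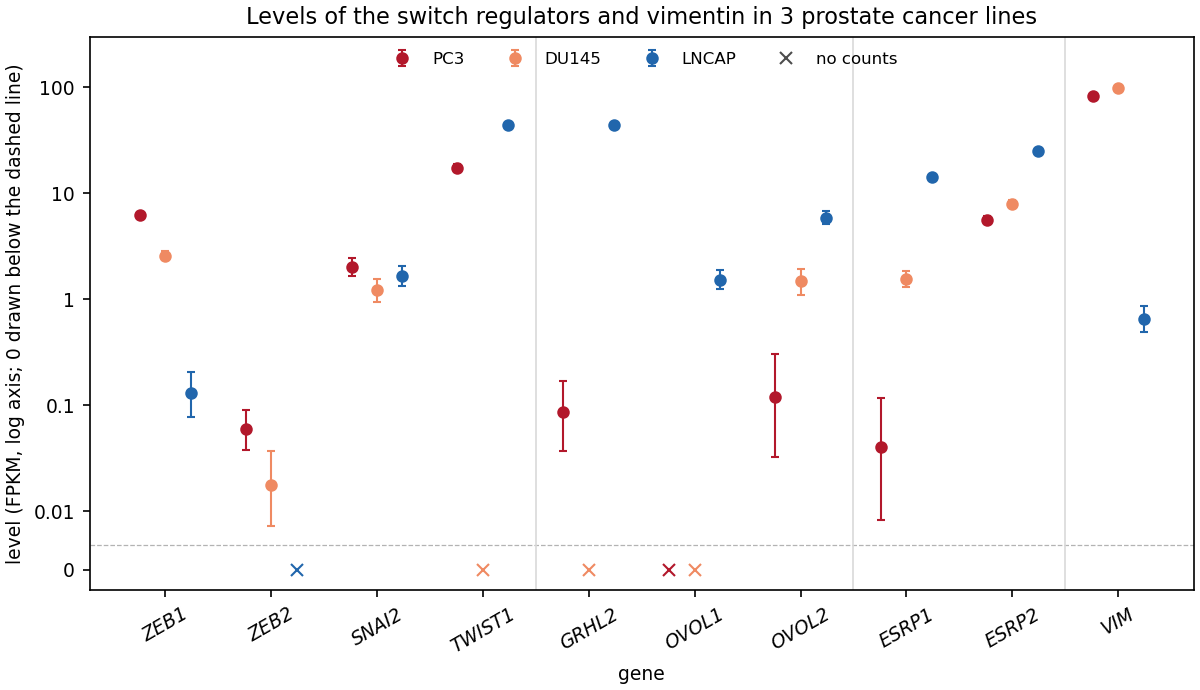
Level of each member (FPKM, log axis) in PC3, DU145 and LNCAP, 1 library each; bars are exact 95% Poisson intervals of the count and crosses mark genes with no counts. VIM stood at 82.5 and 97.5 FPKM in PC3 and DU145 against 0.657 in LNCAP, while GRHL2 stood at 0.0857 and 0 against 43.6.

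ZEB1 (ENSG00000148516, chr10:31318495-31529814) had 825 counts in PC3, 350 in DU145 and 18 in LNCAP. Per length this was 6.19 FPKM (counts scaled by gene length and library depth) in PC3, 2.58 in DU145 and 0.131 in LNCAP. The 3 lines were apart from each other: ZEB1 was 46.9-fold higher in PC3 than in LNCAP (interval 29.5 to 79.5) and 19.4-fold higher in DU145 than in LNCAP (12.1 to 33.1). PC3 was 2.42-fold higher than DU145 (2.13 to 2.75), which did not reach the 4-fold limit. Among the genes compared, ZEB1 ranked above 61.9% in PC3 and above 44.7% in DU145, against 11.2% in LNCAP. ZEB1 was therefore near the middle of the expressed genes in the castration-resistant lines and low in LNCAP.

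ZEB1-AS1, a transcript on the opposite strand that overlaps the ZEB1 start, had 146 counts in PC3, 50 in DU145 and 94 in LNCAP. It had more counts than ZEB1 in LNCAP and fewer in PC3 and DU145. Whether the counting used strand is not given in the sources used here, so reads from the overlap cannot be assigned to either gene with certainty.

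ZEB2, the paralogue of ZEB1, had 23 counts in PC3, 7 in DU145 and 0 in LNCAP. Relative to LNCAP it was higher by at least 7.84-fold in PC3 and by at least 2.33-fold in DU145. These bounds set 3 counts in LNCAP and leave out the counting error of the 23 and 7 counts. The DU145 call rests on those 7 counts against 0, and its bound lies below 4-fold. ZEB2 stood at 0.0596 FPKM in PC3 and 0.0178 FPKM in DU145, so ZEB1 held 99% of the summed level of the pair in PC3 and 99.3% in DU145.

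SNAI2, the zinc finger repressor also known as Slug, had 106 counts in PC3, 65 in DU145 and 90 in LNCAP, or 2.03 FPKM in PC3, 1.22 in DU145 and 1.67 in LNCAP. PC3 over LNCAP was 1.21-fold higher with an interval of 0.901 to 1.61, and DU145 over LNCAP was 1.39-fold lower with an interval of 0.997 to 1.94. Neither interval excluded 1, so no difference from LNCAP was detectable at this depth. PC3 was 1.67-fold higher than DU145 (1.22 to 2.31).

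TWIST1, a basic helix-loop-helix factor that promotes the mesenchymal state, had 541 counts in PC3, 0 in DU145 and 1429 in LNCAP. Its level was 17.3 FPKM in PC3 and 44.1 FPKM in LNCAP, and it was listed at 0 in DU145. LNCAP, the line with the least ZEB1 and VIM, had the most TWIST1, above 95.2% of the genes compared. PC3 was 2.58-fold lower than LNCAP (2.34 to 2.86), which did not reach the 4-fold limit. DU145 was at least 477-fold lower than LNCAP, and PC3 was at least 185-fold higher than DU145. Its antisense neighbour AC003986.2 had 15 counts in PC3, 0 in DU145 and 8 in LNCAP.

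With TWIST1 among them, the 4 mesenchymal transcription factors together did not follow the class. Their summed level was 25.6 FPKM in PC3, 3.82 in DU145 and 45.9 in LNCAP. TWIST1 held 67.6% of that sum in PC3 and 96.1% in LNCAP, while ZEB1 held 67.5% of it in DU145. TWIST1 exceeded ZEB1 2.79-fold in PC3 (2.5 to 3.11) and 338-fold in LNCAP (213 to 572) on the FPKM scale. In PC3 the counts ran the other way, 541 for TWIST1 against 825 for ZEB1, over annotated gene lengths of 2033 and 8650 bases.

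GRHL2, a grainyhead-like activator of epithelial junction genes, had 8 counts in PC3, 0 in DU145 and 4206 in LNCAP. Its level was 0.0857 FPKM in PC3 and listed at 0 in DU145, against 43.6 FPKM in LNCAP, where it ranked above 95.1% of the genes compared. The gene was 514-fold lower in PC3 (261 to 1191) and at least 1405-fold lower in DU145 than in LNCAP. PC3 over DU145 was called higher on 8 counts against 0, with a bound of at least 2.73-fold, and the call was lost on deposited FPKM with 0.1 added (log2 ratio 0.89) and with 5 counts added (1.39). The antisense model AP001207.3, which overlaps the start of GRHL2, had 0 counts in PC3, 0 in DU145 and 50 in LNCAP.

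OVOL1 and OVOL2 encode zinc finger repressors of mesenchymal genes. OVOL1 had 0 counts in PC3, 0 in DU145 and 94 in LNCAP, where it stood at 1.53 FPKM, so it was at least 30.6-fold lower in PC3 and at least 31.4-fold lower in DU145 than in LNCAP. OVOL2 had 4 counts in PC3, 50 in DU145 and 203 in LNCAP, with levels of 0.119 FPKM in PC3, 1.47 in DU145 and 5.86 in LNCAP. These values placed DU145 between the other lines: OVOL2 was 49.6-fold lower in PC3 than in LNCAP (19.1 to 184) and 4.07-fold lower in DU145 than in LNCAP (2.97 to 5.66). The DU145 call lies just inside the limit, at a log2 ratio of -2.01 against a limit of 2 in size. PC3 was 12.2-fold lower than DU145 (4.48 to 46.5). OVOL2 shares part of its position on chromosome 20 with SNX5 on the same strand, which had 2136 counts in PC3, 1344 in DU145 and 2056 in LNCAP, and with MGME1 on the opposite strand, which had 780 counts in PC3, 713 in DU145 and 603 in LNCAP. Both neighbours had more counts than OVOL2 in every library.

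Summed over GRHL2, OVOL1 and OVOL2, the epithelial transcription factors stood at 0.205 FPKM in PC3, 1.47 in DU145 and 51 in LNCAP. OVOL2 was the only one of them with counts in DU145, and GRHL2 held 85.5% of the sum in LNCAP. In LNCAP the level of TWIST1 equalled that of GRHL2 within counting error, with a TWIST1 over GRHL2 ratio of 1.01 (0.953 to 1.08) in FPKM. The counts were 1429 and 4206, and the ratio takes the annotated gene lengths of 2033 and 6060 bases as exact.

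ESRP1 and ESRP2 are RNA-binding proteins that favour epithelial exons. ESRP1 had 3 counts in PC3, 119 in DU145 and 1092 in LNCAP, or 0.04 FPKM in PC3, 1.56 in DU145 and 14.1 in LNCAP. ESRP2 had 483 counts in PC3, 696 in DU145 and 2205 in LNCAP, or 5.64 FPKM in PC3, 7.98 in DU145 and 24.9 in LNCAP. Both genes followed the order PC3, DU145, LNCAP from low to high, but over different ranges: ESRP1 was 356-fold lower (121 to 1728) and ESRP2 4.46-fold lower (4.04 to 4.93) in PC3 than in LNCAP. In DU145, ESRP1 was 9.19-fold lower (7.6 to 11.2) and ESRP2 3.17-fold lower (2.91 to 3.46) than in LNCAP, and ESRP2 did not reach the limit. ESRP2 therefore took up 99.3% of the ESRP level in PC3 and 83.7% in DU145, against 63.9% in LNCAP. ESRP2 overlaps NFATC3 on the opposite strand, which had 350 counts in PC3, 518 in DU145 and 439 in LNCAP.

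ZEB1 and ESRP1, which stand on opposite sides of the switch, were set against each other within each library. ZEB1 exceeded ESRP1 155-fold in PC3 (52.8 to 753) and 1.66-fold in DU145 (1.34 to 2.06) in FPKM, whereas ESRP1 exceeded ZEB1 108-fold in LNCAP (67.8 to 182). In DU145 the levels of ZEB1 and ESRP1 thus lay closer to each other than in PC3 or LNCAP, together with OVOL2 at 1.47 FPKM and no counts of GRHL2.

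**Figure D2:**
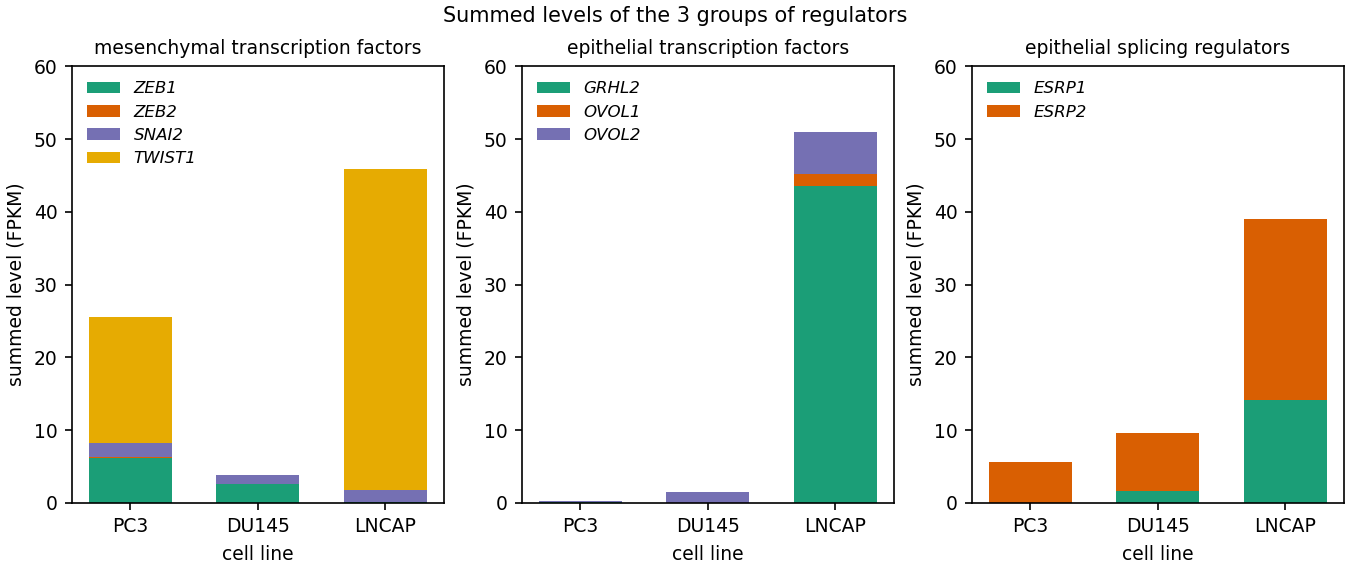
Stacked FPKM of the mesenchymal transcription factors, the epithelial transcription factors and the epithelial splicing regulators in PC3, DU145 and LNCAP, 1 library each, with no error drawn. TWIST1 makes up most of the mesenchymal sum in PC3 and LNCAP, and ESRP2 makes up 99.3% of the splicing regulator sum in PC3 and 63.9% in LNCAP.

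VIM, the intermediate filament of mesenchymal cells (ENSG00000026025, chr10:17228259-17237593), had 6556 counts in PC3, 7886 in DU145 and 54 in LNCAP. Its level was 82.5 FPKM in PC3, 97.5 in DU145 and 0.657 in LNCAP. VIM was 124-fold higher in PC3 (95.1 to 166) and 146-fold higher in DU145 (112 to 194) than in LNCAP. It ranked above 97.9% of the genes compared in PC3 and above 98.3% in DU145, against 24% in LNCAP. PC3 and DU145 were 1.17-fold apart, with PC3 lower (1.14 to 1.21), although ZEB1 was 2.42-fold higher in PC3. VIM-AS1, which overlaps the start of VIM on the opposite strand, had 23 counts in PC3, 38 in DU145 and 22 in LNCAP.

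**Figure D3:**
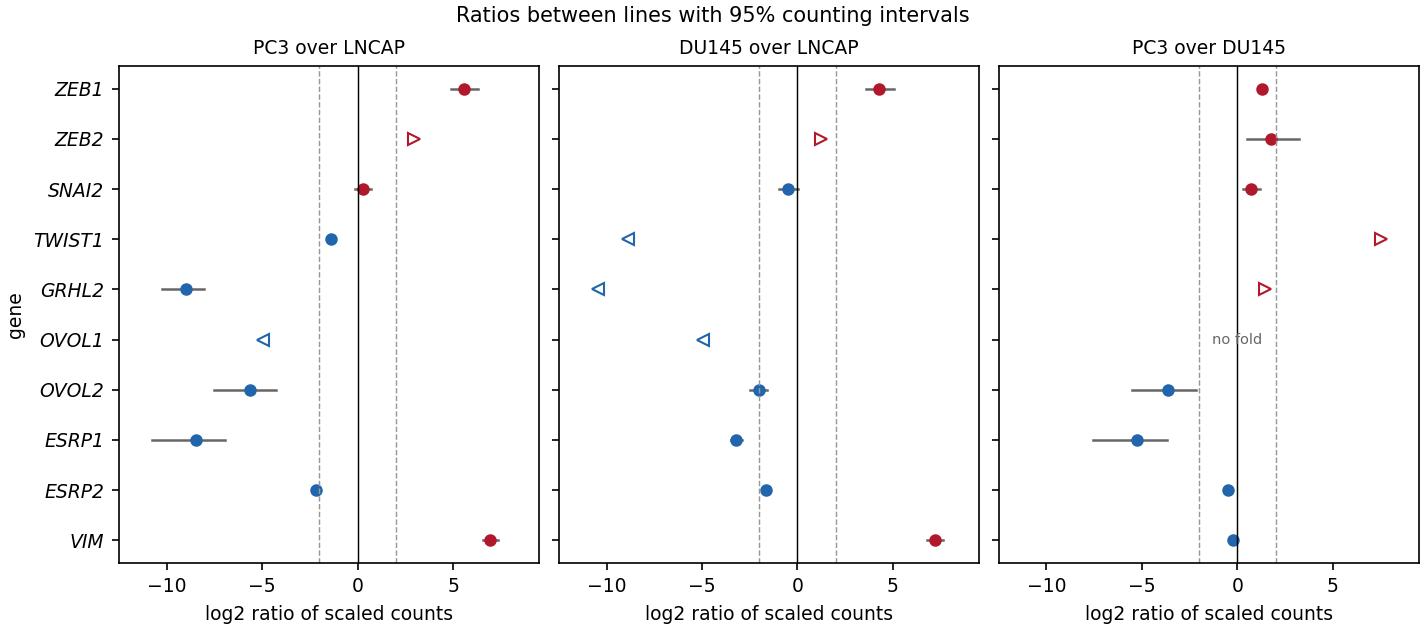
Log2 ratio of scaled counts of each member for PC3 over LNCAP, DU145 over LNCAP and PC3 over DU145; bars are 95% counting intervals, open triangles are bounds against a count of 0, and dashed lines mark 4-fold. SNAI2 lies near 0 in both comparisons with LNCAP, and TWIST1 and ESRP2 lie inside the 4-fold limit in 1 of them each.

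Between the castration-resistant lines, PC3 over DU145, 2 members were called higher (TWIST1 and GRHL2) and 2 lower (OVOL2 and ESRP1), beside 8.54% and 10.6% of all genes compared. ZEB1, ZEB2, SNAI2, ESRP2 and VIM were not called, and OVOL1 had no counts in either line. ZEB2 was 3.37-fold higher in PC3 than in DU145 on 23 counts against 7, with an interval of 1.4 to 9.29 that reaches past 4-fold. Of the 10 members, 6 reached 1 CPM in PC3, 6 in DU145 and 9 in LNCAP.

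The classes were also tested with edgeR's quasi-likelihood test, with PC3 and DU145 as 2 libraries against LNCAP and 1 residual degree of freedom. LNCAP is a single library with no spread of its own, so every p-value here, those of DESeq2 and limma-voom included, rests on how far the PC3 and DU145 libraries lay apart. At a Benjamini-Hochberg adjusted p under 0.05, 0 members and 0 of all 18025 genes passed, which is 0% in either direction. At an unadjusted p under 0.05, 5 members passed, 2 higher (VIM and ZEB1) and 3 lower (GRHL2, OVOL1 and ESRP2), beside 5.38% of all genes higher and 4.31% lower, or 9.69% in all. VIM had a class log2 ratio of 7.07 in edgeR (adjusted p = 0.266), ZEB1 of 5.04 (adjusted p = 0.362), and GRHL2 of -9.97 (adjusted p = 0.31). All 3 went the same way in 2 of 2 castration-resistant lines. With DESeq2, VIM and ZEB1 passed as higher and GRHL2 as lower at an adjusted p under 0.05, beside 5.06% and 2.19% of all genes, or 7.25% in all, and with limma-voom 0 members passed.

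The genes around the switch were read from gene lists, each set against the share of all genes called. That share was 13.0% higher and 13.3% lower in PC3 over LNCAP, 13.7% and 12.1% in DU145 over LNCAP, and 8.54% and 10.6% in PC3 over DU145. The first list held 24 epithelial genes that ZEB proteins repress or GRHL2 activates. In PC3 over LNCAP, 16 of them were called lower (66.7%) and 2 higher, with a median log2 ratio of -2.98, beside -0.01 over all genes. In DU145 over LNCAP, 12 were lower (50%) and 1 higher, with a median of -1.99, beside 0.00 over all genes. CDH1, which encodes E-cadherin, had 0.357 FPKM in PC3, 23.4 in DU145 and 125 in LNCAP, and was 353-fold lower in PC3 (253 to 510) and 5.42-fold lower in DU145 (5.19 to 5.68) than in LNCAP. AP1M2, an epithelial clathrin adaptor subunit, had 1 count in PC3, 10 in DU145 and 2558 in LNCAP. ST14, the membrane protease matriptase, had 4 counts in PC3, 281 in DU145 and 4615 in LNCAP. RAB25, an epithelial trafficking GTPase, had 1 count in PC3, 3 in DU145 and 841 in LNCAP, and was 822-fold lower in PC3 (147 to 32503) and 281-fold lower in DU145 (95.8 to 1365).

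Other members of that list did not follow. TMEM30B, a flippase subunit, had 149 counts in PC3, 79 in DU145 and 0 in LNCAP, and PKP2, a desmosomal plaque protein, was 5.4-fold higher in PC3 than in LNCAP (4.52 to 6.49). The list also set PC3 apart from DU145, where 9 were lower and 1 higher (median -1.06, beside 0.00 over all genes). The number lower was 6 on deposited FPKM with 0.1 added and 7 with 5 counts added. CDH1 was 65.1-fold lower (46.5 to 94.2), ST14 68.5-fold lower (26.5 to 253) and the polarity gene CRB3 59.7-fold lower (27.2 to 164) in PC3 than in DU145. MAL2, a transcytosis protein, was 8.91-fold higher in PC3 (8.35 to 9.51).

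Of 18 mesenchymal effector genes compared, 12 were higher and 3 lower in PC3 over LNCAP, or 66.7% and 16.7% beside 13.0% and 13.3% of all genes. In DU145 over LNCAP, 6 were higher and 2 lower, or 33.3% and 11.1% beside 13.7% and 12.1%. In PC3 over DU145, 10 were higher and 2 lower, or 55.6% and 11.1% beside 8.54% and 10.6%. The shares lower were thus near those of all genes. The median log2 ratios were 4.51 in PC3 over LNCAP, 0.80 in DU145 over LNCAP and 2.66 in PC3 over DU145, beside -0.01, 0.00 and 0.00 over all genes. AXL, a receptor tyrosine kinase, had 7281 counts in PC3, 14494 in DU145 and 1 in LNCAP. CDH2, which encodes N-cadherin, had 3379 counts in PC3, 0 in DU145 and 1 in LNCAP, and CDH11 had 7894 in PC3, 0 in DU145 and 0 in LNCAP. DU145 thus had VIM without counts of either of these cadherins. FN1, which encodes fibronectin and is counted among mesenchymal genes, was highest in LNCAP, with 21.6 FPKM in PC3, 1.93 in DU145 and 285 in LNCAP. TGFBI, a matrix protein induced by TGF-beta, had 1 count in PC3, 2222 in DU145 and 8 in LNCAP.

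**Figure D4:**
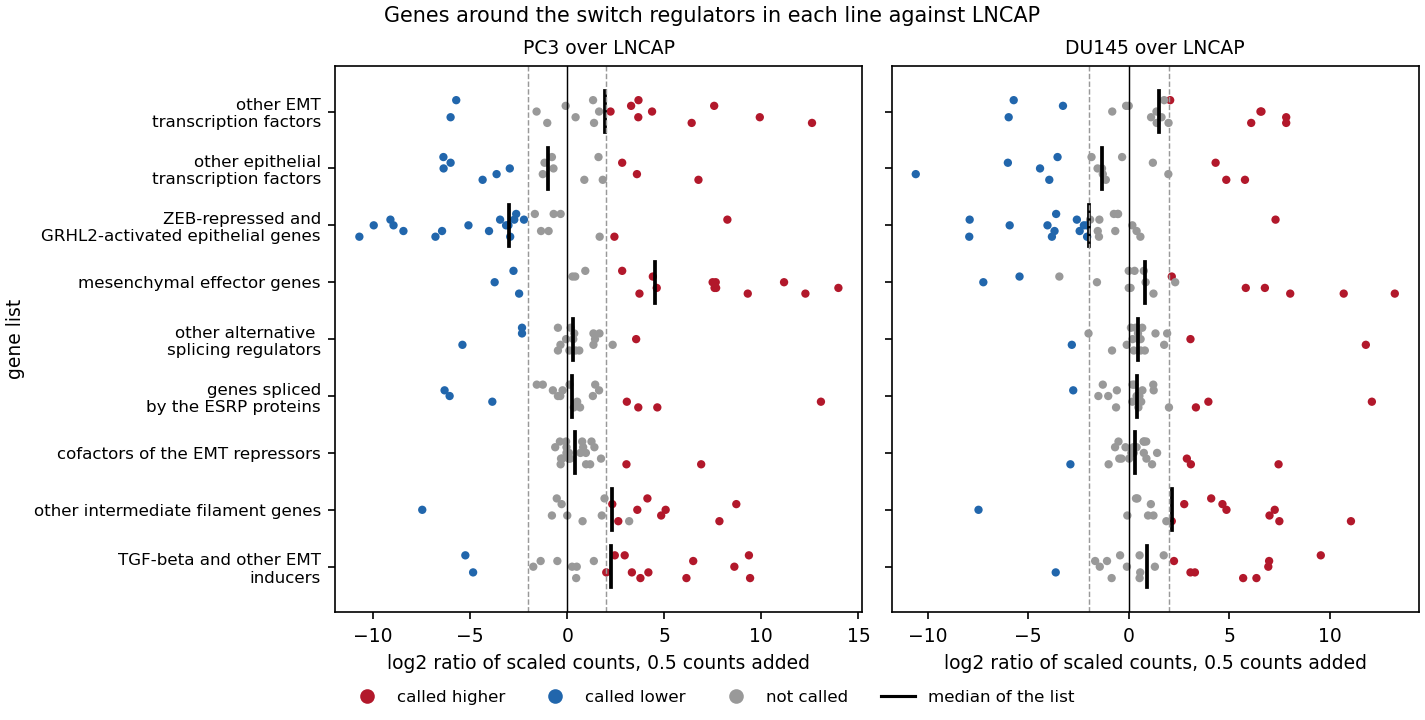
Log2 ratio of scaled counts (0.5 counts added) for the genes of 9 lists in PC3 over LNCAP and DU145 over LNCAP; each point is a gene, black bars are list medians and dashed lines mark 4-fold. The epithelial list has medians of -2.98 and -1.99, and the mesenchymal effector list has medians of 4.51 and 0.80.

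Other transcription factors of the transition, 18 compared, were higher in 9 and lower in 2 in PC3 over LNCAP and higher in 6 and lower in 3 in DU145 over LNCAP. The shares higher were 50% in PC3 and 33.3% in DU145, beside 13.0% and 13.7% of all genes, and the shares lower, 11.1% and 16.7%, were near the 13.3% and 12.1% of all genes. FOSL1, an AP-1 subunit, had 277 FPKM in PC3, 65.6 in DU145 and 0.266 in LNCAP. ETS1, the founding ETS factor, had 26.8 FPKM in PC3, 21.6 in DU145 and 0.307 in LNCAP. Both genes were thus high in the 2 lines with ZEB1. HMGA2, a chromatin protein, had 3075 counts in PC3, 114 in DU145 and 0 in LNCAP. TWIST2, the paralogue of TWIST1, had 11 counts in PC3, 242 in DU145 and 2 in LNCAP, so DU145 was the highest line for TWIST2 and the line without counts for TWIST1. TCF4, a partner of TWIST proteins, had 390 counts in PC3, 0 in DU145 and 31 in LNCAP.

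Of 16 other epithelial transcription factors compared, 3 were higher and 6 lower in PC3 over LNCAP, or 18.8% and 37.5% beside 13.0% and 13.3% of all genes. In DU145 over LNCAP 3 were higher and 5 lower, or 18.8% and 31.2% beside 13.7% and 12.1%. EHF, an epithelial ETS factor, had 6.26 FPKM in PC3, 0.0436 in DU145 and 77.1 in LNCAP. GATA3 and TFAP2A went the other way: GATA3 had 53 counts in PC3, 14 in DU145 and 0 in LNCAP, and TFAP2A had 3.78 FPKM in PC3, 10.7 in DU145 and 0.524 in LNCAP.

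Of 19 other splicing regulators compared, 1 was higher and 3 lower in PC3 over LNCAP, or 5.26% and 15.8% beside 13.0% and 13.3% of all genes. In DU145 over LNCAP 2 were higher and 1 lower, or 10.5% and 5.26% beside 13.7% and 12.1%, so the list as a whole was called about as often as other genes or less. RBM47, an epithelial RNA-binding protein, had 0.593 FPKM in PC3, 3.55 in DU145 and 24.9 in LNCAP, the same order of lines as ESRP1. MBNL2 was 11.8-fold higher in PC3 (9.66 to 14.5) and 8.42-fold higher in DU145 (6.88 to 10.4) than in LNCAP. Of 20 genes whose transcripts the ESRP proteins splice, 4 were higher and 3 lower in PC3 over LNCAP, and 3 higher and 1 lower in DU145 over LNCAP. That was 20% and 15% in PC3, beside 13.0% and 13.3% of all genes, and 15% and 5% in DU145, beside 13.7% and 12.1%, so nothing is read from these counts. CD44 had 4223 counts in PC3, 2205 in DU145 and 0 in LNCAP, and FGFR2 had 0 counts in PC3, 16 in DU145 and 33 in LNCAP. These are totals per gene, and the tables hold no splice forms.

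Of 22 cofactors of the repressors, 2 were higher and 0 lower in PC3 over LNCAP and 3 higher and 1 lower in DU145 over LNCAP. These counts, 9.09% and 0% in PC3 and 13.6% and 4.55% in DU145, lie at or below the shares of all genes (13.0% and 13.3%, 13.7% and 12.1%). LOXL2, a lysyl oxidase-like enzyme that stabilizes SNAI1, had 27.1 FPKM in PC3, 40 in DU145 and 0.22 in LNCAP. The remodeller ATPase gene SMARCA4 was 7.48-fold lower in DU145 than in LNCAP (6.84 to 8.2).

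Among other intermediate filament genes, 17 compared, 8 were higher and 1 lower in PC3 over LNCAP and 9 higher and 1 lower in DU145 over LNCAP. The shares higher were 47.1% in PC3 and 52.9% in DU145, beside 13.0% and 13.7% of all genes. NES, which encodes nestin, had 50.3 FPKM in PC3, 3.05 in DU145 and 0.113 in LNCAP. KRT7, a simple epithelial keratin, had 40.8 FPKM in PC3, 380 in DU145 and 0.169 in LNCAP. The epithelial keratins KRT8 and KRT18 were expressed beside VIM, KRT8 at 37.2 FPKM in PC3, 151 in DU145 and 63.5 in LNCAP and KRT18 at 58.5 in PC3, 154 in DU145 and 70.6 in LNCAP. PC3 and DU145 thus had VIM, KRT8 and KRT18 together.

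TGF-beta signals and other inducers of the transition, 20 compared, were higher in 11 and lower in 2 in PC3 over LNCAP and higher in 8 and lower in 1 in DU145 over LNCAP. The shares higher were 55% in PC3 and 40.0% in DU145, beside 13.0% and 13.7% of all genes. TGFB1, which encodes the ligand, had 1607 counts in PC3, 1874 in DU145 and 2 in LNCAP. TGFBR2, a receptor subunit, had 2146 counts in PC3, 3102 in DU145 and 24 in LNCAP. MET, the HGF receptor gene, had 10880 counts in PC3, 3516 in DU145 and 28 in LNCAP. These 3 genes were called higher in both lines, while INHBA did not follow in DU145. INHBA, an activin subunit gene, had 3010 counts in PC3, 2 in DU145 and 4 in LNCAP.

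The genes of the miR-200 family were below the filter in every library, and reads on a hairpin gene model are not a measure of the mature microRNA. Summed over MIR200A, MIR200B and MIR429 on chromosome 1, there were 0 counts in PC3, 5 in DU145 and 22 in LNCAP. The sum was at least 7.17-fold lower in PC3 and 4.41-fold lower in DU145 (1.63 to 14.9) than in LNCAP. MIR200CHG on chromosome 12 had 0 counts in PC3, 4 in DU145 and 15 in LNCAP. Both loci thus had counts in the same order of lines as OVOL2, ESRP1 and ESRP2, although PC3 and DU145 were told apart by 5 and 4 counts alone. The models of MIR200C, MIR141 and MIR205 had 0 counts in all 3 libraries.

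The labelled cell type was checked against markers. The luminal prostate marker KLK3 had 0 counts in PC3 and 0 in DU145, against 35507 in LNCAP, and the basal marker TP63 had 0 counts in all 3 libraries. The luminal keratin genes KRT8 and KRT18, also among the markers, did not follow KLK3. KRT8 had 3937 counts in PC3, 16315 in DU145 and 6954 in LNCAP, and KRT18 had 2897 in PC3, 7795 in DU145 and 3620 in LNCAP. HOXB13, a prostate homeobox gene, had 5909 counts in PC3, 0 in DU145 and 5140 in LNCAP. The 16 luminal and basal markers, 14 of them compared, were higher in 2 and lower in 8 in PC3 over LNCAP and higher in 1 and lower in 9 in DU145 over LNCAP. The shares lower were 57.1% in PC3 and 64.3% in DU145, beside 13.3% and 12.1% of all genes. The shares higher were 14.3% and 7.14%, beside 13.0% and 13.7%. Those called higher were basal integrin genes. ITGB4, called in both lines, had 5454 counts in PC3, 1894 in DU145 and 61 in LNCAP. ITGA6, called in PC3 alone, had 6846 counts in PC3, 2220 in DU145 and 554 in LNCAP. In DU145 it missed the call narrowly, at 142 CPM against 35.4 CPM in LNCAP. On deposited FPKM with 0.1 added, 2 of these markers were called higher in DU145 over LNCAP. The basal keratin gene KRT14 had 0 counts in PC3, 0 in DU145 and 89 in LNCAP. Because vimentin and the ZEB genes are also expressed by fibroblasts, endothelial and blood cells, 20 markers of such cells were counted. Their summed level was 75.1 CPM in PC3, 14.9 in DU145 and 48.9 in LNCAP, with 5 of them at 1 CPM or more in PC3, 3 in DU145 and 4 in LNCAP. COL1A1, the most abundant of them, had 488 counts in PC3, 148 in DU145 and 518 in LNCAP. LUM, DES, CD3E, MS4A1 and HBB had 0 counts in all 3 libraries, as did DCN in PC3 and DU145. Of 8 of these markers compared, 3 were called higher and 1 lower in PC3 over LNCAP and 2 higher and 2 lower in DU145 over LNCAP, beside 13.0% and 13.3% and 13.7% and 12.1% of all genes. PECAM1, an endothelial gene, had 307 counts in PC3, 12 in DU145 and 0 in LNCAP. PDGFRA had 66 counts in PC3, 0 in DU145 and 3 in LNCAP, and COL3A1 had 239 in PC3, 2 in DU145 and 31 in LNCAP. CD14 had 3 counts in PC3, 22 in DU145 and 4 in LNCAP, and VWF had 1 in PC3, 0 in DU145 and 144 in LNCAP. The part of these markers in the levels of VIM and the ZEB genes was not tested.

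For each member, protein-coding genes of like pattern over the 3 libraries were listed by the distance of their centred log2 FPKM values (0.1 added), among 12270 candidates. VIM was nearest to MYEOV, at a distance of 0.0403, with 29.4 FPKM in PC3, 33.4 in DU145 and 0.167 in LNCAP, followed by CTHRC1 at 0.219. ZEB1 was nearest to FBXO43 at 0.0211 and GEM at 0.0538. GRHL2 was nearest to GUCY1A1 at 0.105, with 4 genes within 0.5. GUCY1A1, a guanylate cyclase subunit gene, had 0.0901 FPKM in PC3, 0 in DU145 and 48.1 in LNCAP.

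ESRP1 was nearest to FAM155B at 0.0722 and CDKN1A at 0.217. ESRP2 lay nearest PAK4 at 0.0593 and PTCH1 at 0.0688, OVOL1 nearest ALPK2 at 0.0128 and TMEM179 at 0.0283, and OVOL2 nearest HSPB8 at 0.059 and C14orf132 at 0.178. TWIST1 had no gene within 0.5 of its pattern, and its nearest were AGR2 at 0.771 and GDF15 at 0.841, both listed low or at 0 in DU145. AGR2 had 9.59 FPKM in PC3, 0 in DU145 and 21.7 in LNCAP. The flat patterns of ZEB2 and SNAI2 on this scale were shared by 2197 and 1989 genes within 0.5, with UBR2 and ZBTB44 nearest to ZEB2 and PIN4 and RCBTB2 nearest to SNAI2. For ZEB2 the flatness comes from the scale, because its levels of 0.0596 FPKM in PC3, 0.0178 in DU145 and 0 in LNCAP lie below the 0.1 added. On counts ZEB2 was called higher in both lines than in LNCAP. With 3 libraries such nearness describes these values and has no test.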

How the data were processed

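For each of the 3 libraries the authors deposited raw counts, as whole numbers per gene, and FPKM. The deposited FPKM is the same count scaled by gene length and by 1 constant per library, 1.005 times the total in PC3, 0.988 in DU145 and 1.034 in LNCAP. Ratios and sums between genes within a library depend on that annotated length, and their intervals take it as exact. The submitters' processing notes name Cuffdiff 2.1.1, Cufflinks 2.1.1, Bowtie2 2.0.6 and TopHat2 2.0.9 without their roles. No source used here states the build or the strand setting, and all 58735 identifiers and coordinates matched GENCODE release 29 (GRCh38).

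TMM scaling in edgeR 4.0.16 (R 4.3.3) gave factors of 0.998 in PC3, 0.987 in DU145 and 1.016 in LNCAP. Ratios of scaled counts between 2 lines have exact 95% conditional binomial (Clopper-Pearson) intervals (Python 3.11.15, scipy 1.17.1). A call needed a log2 ratio of 2 or more in size, after adding 0.5 counts, and an interval without 1. A fold against 0 is a bound that sets 3 counts in that library. It leaves out the counting error of the other library, so it is not the limit of a 95% interval. Without molecular identifiers, reads may repeat a molecule, so intervals cover counting error only. Intervals and bounds compare libraries, not classes. DESeq2 1.42.0 and limma 3.58.1 served as alternatives to edgeR for the classes, and scaling, filter, added counts and threshold were varied for the ratios. The ratio and class calculations were also run on simulated counts. For the class test, PC3 and DU145 were simulated as replicates with the same mean levels, which these lines are not. That run does not show how the class test performs on these lines.

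The members and gene lists were chosen with earlier results of these data known. Named genes are the members, 2 genes of nearest pattern for each, the genes overlapping members, and from each list up to 3 called genes per direction and comparison with the largest near bound; some of these genes are not reported here. The genes of the microRNA loci and the markers LUM, DES, CD3E, MS4A1, HBB, DCN, COL1A1, KRT18 and TP63, which were called in no comparison or fall outside that rule, and the comparisons of member levels within a library were chosen after their values were seen.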

Additional observations from a re-analysis of the deposited data

Results flagged for a closer look

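Among the listed genes, 4 were called in opposite directions in the 2 castration-resistant lines against the shared LNCAP library, and the difference between the lines' effects was not tested. TCF4 had a log2 ratio of 3.66 in PC3 over LNCAP and -5.97 in DU145 over LNCAP. TGFBI had -2.48 in PC3 over LNCAP, where it rests on 1 count against 8, and 8.03 in DU145 over LNCAP. JAG1, a Notch ligand gene, had 2.01 in PC3 over LNCAP, just past the limit, and -3.63 in DU145 over LNCAP. COL3A1, a fibrillar collagen gene, had 2.96 in PC3 over LNCAP and -3.66 in DU145 over LNCAP, on 239 counts in PC3, 2 in DU145 and 31 in LNCAP. No member was called in opposite directions.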

How the results depend on the processing

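Scaling, the counts added, the 4-fold limit and the filter were each changed alone, except that deposited FPKM with 0.1 added changes the scaling and the amount added together. Of 52 member counts under these alternatives and those of the class tests, 47 stayed within 1.5 times their value and 5 moved, but a count within 1.5 times can still lose a call. With FPKM, ZEB2 was lost in PC3 and DU145 over LNCAP and OVOL2 in DU145 over LNCAP. With 5 counts added, ZEB2 and OVOL2 were lost in DU145 over LNCAP, and at a minimum of 5 CPM ZEB2 was not compared. The number of members called higher in PC3 over DU145, 2 as reported, was 1 with deposited FPKM and 0.1 added, 1 with 5 counts added, and 4 at a 2-fold limit. For the classes against LNCAP, DESeq2 called 2 members higher and 1 lower, against 0 and 0 with edgeR. The class log2 ratio of SNAI2, -0.06 as reported, ranged between -0.47 without PC3 and 0.27 without DU145; each value then compares 1 line with LNCAP, and SNAI2 was called in neither. Fits without PC3 or without DU145 have no residual degrees of freedom and give values with no test. Of 120 member log2 ratios, 103 moved by less than their counting interval, and the other 17 moved further without a change of sign among called values. All 30 levels stayed within their intervals when FPKM was recomputed from scaled counts. Of 546 list counts, 499 stayed within 1.5 times and 47 moved. Depth limits genes with few counts, such as ZEB2, with at most 23 in a library, and the microRNA loci, with at most 22 over the chromosome 1 models and 15 for MIR200CHG. No paired analysis was possible because each line has 1 library, so the lines share fewer than 2 replicate numbers.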
